A study of Homo sapiens with 6 samples.

Results

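The genes described here are the histone genes of the human genome, both those whose mRNAs are made for DNA replication and end in a stem-loop and those whose mRNAs carry a poly(A) tail. They were taken from the annotation by symbol, as protein-coding genes whose symbol starts with H1-, H2AC, H2BC, H3C, H4C, H2AZ, H2AX, H2AJ, MACROH2A or H3-3. The rule gave 77 genes, of which 46 had a row in the count files, out of 57905 gene identifiers there. The 46 were 34 replication-dependent genes, 11 genes of polyadenylated variants, and H2AX, which was kept apart because its mRNA is known in both forms. For the other 31 genes, all replication-dependent, no row carried the current identifier, and they are not analysed here. Whether they are among the 2367 identifiers in the files that the annotation does not name was not tested.

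The study asked which mRNAs are cut by IRE1, a stress sensor of the endoplasmic reticulum with an RNase domain. Total RNA of NCI-H929, a line of human multiple myeloma cells that secretes antibody, was used without further treatment of the cells. Each reaction held 5 μg of this RNA. The 3 IRE1-treated samples received 2 μg of a recombinant human IRE1 fragment (residues 467 to 977, from the cytoplasmic side), and the 3 mock-treated controls received no enzyme. All were kept at 37 °C for 1 h and then heated to 95 °C for 5 min. All 6 samples were then purified on poly-T beads, a step that depletes RNA without a poly(A) tail but need not remove all of it, and from a cut mRNA it mainly keeps the piece that carries the tail. The enzyme acted on naked RNA and was a fragment, and all RNA came from 1 cell line. The sources used here do not say whether the samples of a group came from separate cultures, so the p-values measure only the spread between these samples, which may be technical.

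Most mRNAs end in a poly(A) tail. The mRNAs of the replication-dependent histones H1, H2A, H2B, H3 and H4 end instead in a short stem-loop, which the protein SLBP binds and which U7 snRNP helps to cut, and these mRNAs are made in S phase and removed when DNA synthesis stops. The genes of the variant histones, such as H2A.Z and H3.3, have introns in most cases, give polyadenylated mRNAs and are active throughout the cell cycle. Some replication-dependent genes are also known to give polyadenylated mRNAs, in particular in differentiated cells and in tumour lines.

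The stem-loop itself was read from the genome (GRCh37), since it is the feature by which the 2 classes of mRNA end differently. It was searched for on the gene's own strand, in the 150 bases after each annotated stop codon, as the histone 3′ stem-loop consensus of 16 bases, with a stem of 6 bases on each arm and a loop of 4. The genes below are the replication-dependent genes with the highest counts, then H4C3, which had no count at all, and H2AX. Each is given 5′ to 3′ on the strand of the gene with 5 bases on either side, and the capitals mark the stem-loop.
H1-2: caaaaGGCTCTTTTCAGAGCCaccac
H2BC12: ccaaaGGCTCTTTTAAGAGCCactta
H2BC21: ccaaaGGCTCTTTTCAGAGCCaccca
H2AC6: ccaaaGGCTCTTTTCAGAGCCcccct
H2BC5: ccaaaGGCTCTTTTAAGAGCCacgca
H2AC11: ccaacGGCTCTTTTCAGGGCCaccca
H4C8: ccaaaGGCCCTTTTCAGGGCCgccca
H2AC20: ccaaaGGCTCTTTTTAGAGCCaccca
H4C3: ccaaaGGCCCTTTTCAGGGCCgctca
H2AX: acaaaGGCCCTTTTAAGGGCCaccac

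These windows lay at chr6:26055967-26055992 for H1-2, chr6:27114140-27114165 for H2BC12 and chr1:149857733-149857758 for H2BC21, all 3 on the minus strand. That of H2AC6 was at chr6:26124892-26124917 and that of H2BC5 at chr6:26158810-26158835, both on the plus strand, and that of H2AX at chr11:118965603-118965628 on the minus strand. A stem-loop was found for 33 of the 34 replication-dependent genes with a row, the exception being H2BC12L on chromosome 21, and for H2AX. It was found for 0 of the 11 polyadenylated variants. Of the 19247 other protein-coding genes with a row and an annotated stop codon, 9 held the same pattern in this window (0.0468%). Among those 9 were HIST1H4B and HIST2H2AA3, histone genes that the annotation lists under older symbols and that the rule therefore did not take. The histone genes H3-4 and H3-7 were among them too, and their symbols start with none of the rule's prefixes. In the 34 genes with a stem-loop it began 23 to 58 bases after the stop codon and took 6 forms, and 20 genes shared the form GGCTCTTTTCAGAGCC. H2AC11 alone held the form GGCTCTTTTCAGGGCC. None of the 34 windows of 26 bases held CTGCAG, the letters at the core of the IRE1 cleavage consensus in DNA form. The windows were chosen by the stem-loop consensus, which leaves little room for these letters. Their absence thus says nothing about IRE1 sites in these mRNAs. A match in this search is a description of the letters, not a test of binding or cleavage.

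Counts on genes ran from 19615715 to 25678499 per library. The cell type of the labels could be checked, since the plasma cell genes SDC1, CD38, TNFRSF17, IRF4, PRDM1, XBP1 and SLAMF7 together held 146577 to 149936 normalized counts in the controls and 141052 to 143964 after IRE1. Normalized counts are counts divided by the TMM-scaled library size and set to the mean library. Of 9 markers of other blood cells, 3 passed the filter on low counts, among them CD3E and GP9. The T cell gene CD3E had 890 to 1063 raw counts per library, above the 408 to 623 of the plasma cell gene CD38. GP9 had 9 to 15, and CD3D, another T cell gene, had 1 count at most in any library. The part of these markers in the results was not tested. BLOC1S1, a known IRE1 target, had 606, 582 and 649 normalized counts in the controls and 275, 230 and 211 after IRE1, all treated samples far below all controls. This checks the labels. Its log2 fold change was -1.37 ± 0.09 (SE), with an adjusted p of 1.25e-06 (edgeR's quasi-likelihood test, adjusted after Benjamini and Hochberg over 14398 genes, n = 3 per group).

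The 2 classes stood far apart in level. Per kilobase of the canonical transcript, the 34 replication-dependent genes had a median of 0.532 CPM (counts scaled to a common library total) over the 6 libraries, against 51.1 for the 11 polyadenylated variants. The 51.1 is the value of H2AJ, which has 620 canonical bases and 3332 bases in all annotated exons. No other length was used for the levels. Only 4 replication-dependent genes, H2BC12, H1-2, H2AC6 and H2BC5, reached or passed 21.1 CPM per kilobase, the level of the lowest of the 8 variants that passed the filter. Of the 34, 6 had no count in any library, 11 had a mean under 1 normalized count, and 8 had a mean of at least 100. The low end is limited by depth, since 3 counts over the 6 libraries, the limit that a count of 0 allows, correspond to 0.0225 CPM. This limit covers counting error only. All levels are those after purification on poly-T beads, which depletes stem-loop mRNAs without a tail. They therefore do not give the levels in the cell, and the part of this step in the gap was not tested. In bulk RNA a low level also does not tell fewer expressing cells from less RNA per cell.

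**Figure D1:**
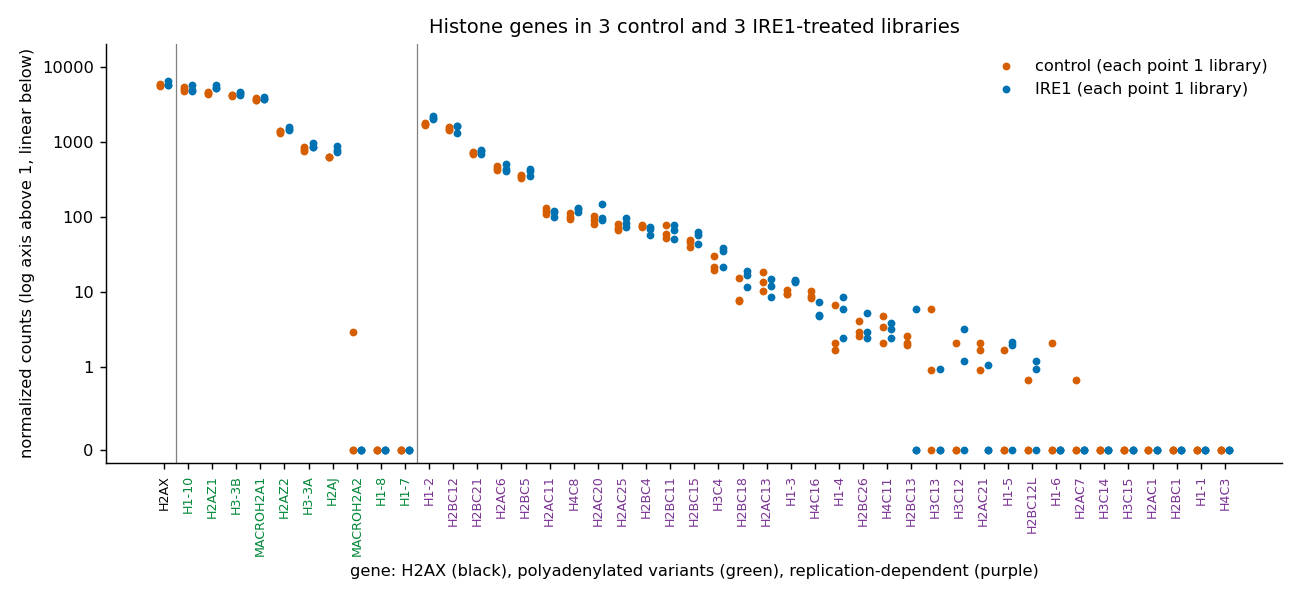
Normalized counts of 45 of the 46 histone genes with a row, on an axis that is logarithmic above 1 and linear below, with 1 point per library, controls in orange and IRE1-treated samples in blue. Genes are ordered by mean within H2AX, the polyadenylated variants and the replication-dependent genes. The replication-dependent genes run from about the level of H2AZ2 (H1-2) down to 0, whereas 7 of the 10 variants shown lie above 600 and the other 3 at or near 0.

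Of the 34 replication-dependent genes with a row, 5 held most of the counts. H1-2, H2BC12, H2BC21, H2AC6 and H2BC5 together made up 86.8% to 88.5% of the counts of these 34 in each library, and their share of the whole class of 65 genes is not known. H1-2, a linker histone that binds the DNA between nucleosomes, took 30.5% to 38.4%, and H2BC12, an H2B gene, took 22.5% to 28.8%. The summed level of the class was 240, 242 and 237 CPM in the controls and 258, 268 and 269 CPM after IRE1, and that of the variants was 1061, 1067 and 1067 CPM in the controls and 1177, 1152 and 1123 CPM after IRE1. The members of the class lie in clusters, with 23 of the 34 on chromosome 6 and 9 on chromosome 1, whereas the 11 variants are spread over 9 chromosomes with at most 2 on each.

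H1-2 had the highest count of the class, at 1748, 1641 and 1721 normalized counts in the controls and 2205, 2088 and 1981 after IRE1. Every IRE1-treated sample lay above every control. The other linker histone genes of the class were far lower. H1-3 had 9 to 14 raw counts per library, H1-4 had 2 to 8, and H1-1 had none.

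H2B genes came next. H2BC12 (chr6:27114140-27114634) had 1445, 1548 and 1454 normalized counts in the controls and 1294, 1631 and 1591 after IRE1, and the groups overlapped. H2BC21, on chromosome 1, had 718, 710 and 679 in the controls and 678, 769 and 755 after IRE1, again with overlap. H2BC5 had 327, 350 and 361 in the controls and 406, 352 and 431 after IRE1. Only IRE1 replicate 2 of H2BC5 lay within the range of the controls. The lower H2B genes H2BC4, H2BC11 and H2BC15 had 38 to 92 raw counts per library. Of the 75-base words of H2BC12, 39.0% occur elsewhere in the genome, and for H2BC21 and H2BC5 the shares are 4.88% and 1.68%, so a pair from H2BC12 can more often lack a unique place, and its count is uncertain to that extent.

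Of the H2A genes, H2AC6 had 441, 473 and 420 normalized counts in the controls and 401, 433 and 510 after IRE1, so that the treated samples lay on both sides of the controls. H2AC11 had 108, 132 and 117 in the controls and 116, 98.1 and 120 after IRE1. H2AC20 had 81.0, 102 and 91.4 in the controls and 150, 96.0 and 91.1 after IRE1. Only IRE1 replicate 1 of H2AC20 stood above the controls. H2AC25, an H2A gene on chromosome 1, had 64 to 99 raw counts per library.

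H3 and H4 code for the proteins at the centre of the nucleosome, and a row was at hand for 5 of 13 H3 and 4 of 13 H4 genes of the class. Those with a row had few counts. H4C8 was the exception, at 112, 99.1 and 93.5 normalized counts in the controls and 115, 129 and 127 after IRE1, with every treated sample above every control. Among the other H4 genes with a row, H4C16 had 10.1, 8.66 and 8.22 normalized counts in the controls and 4.79, 7.38 and 4.85 after IRE1, H4C11 had 2 to 5 raw counts per library, and H4C3 had none. Every treated sample of H4C16 lay below every control, but it was not tested, since only 1 control and 0 treated samples reached the filter's level. H4C3 has no 75-base word that is repeated in the genome. The H3 gene with the highest count was H3C4, with 22 to 33 raw counts, and the other 4 H3 genes with a row had at most 7. Among those 4, H3C14 and H3C15, each at 0, consist of repeated 75-base words to 100%, and H3C13 to 69.9%, so their low values cannot be told apart from pairs without a unique alignment. In all, 6 replication-dependent genes had more than 50% repeated words (H3C13, H3C14, H3C15, H4C11, H2AC13 and H2BC18), and 0 of the 11 variants did.

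Whether the annotation knows a longer transcript went with the level. For 12 of the 33 genes with a stem-loop, an annotated transcript ends more than 100 bases past it in the genome, and 21 have no such transcript. The first set had a median of 67.2 normalized counts and 6.43 CPM per kilobase of the canonical transcript. The second had 1.31 normalized counts and 0.125 CPM per kilobase. Both medians of the second set are the values of H3C13, which consists of repeated words to 69.9%. Genes with mostly repeated words made up 5 of the 21 in the second set and 1 of the 12 in the first. Low values of such genes cannot be told apart from pairs without a unique alignment. The part of repeated words in the gap between the sets was not tested. In the first set the canonical transcript can be far shorter than all annotated exons, with 519 against 1668 bases for H2AC6 and 409 against 2163 for H4C8. Reads on the further exons may enter the count, so the values of this set may be raised by the trait that defines it. H2AC6, H2BC5, H2BC21 and H4C8 belong to the first set, with ends 14432, 12747, 1729 and 7522 bases past the stem-loop. The rule has exceptions on both sides. H1-2 and H2BC12, the highest of the class, have no annotated end more than 5 bases past the stem-loop, nor do H2AC11 and H2AC20, and H2AC1, which has such an end, had no count. The counts used the gene models of an older annotation, so the ends known here are not those used for counting, and no p-value is given for this comparison of genes.

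**Figure D2:**
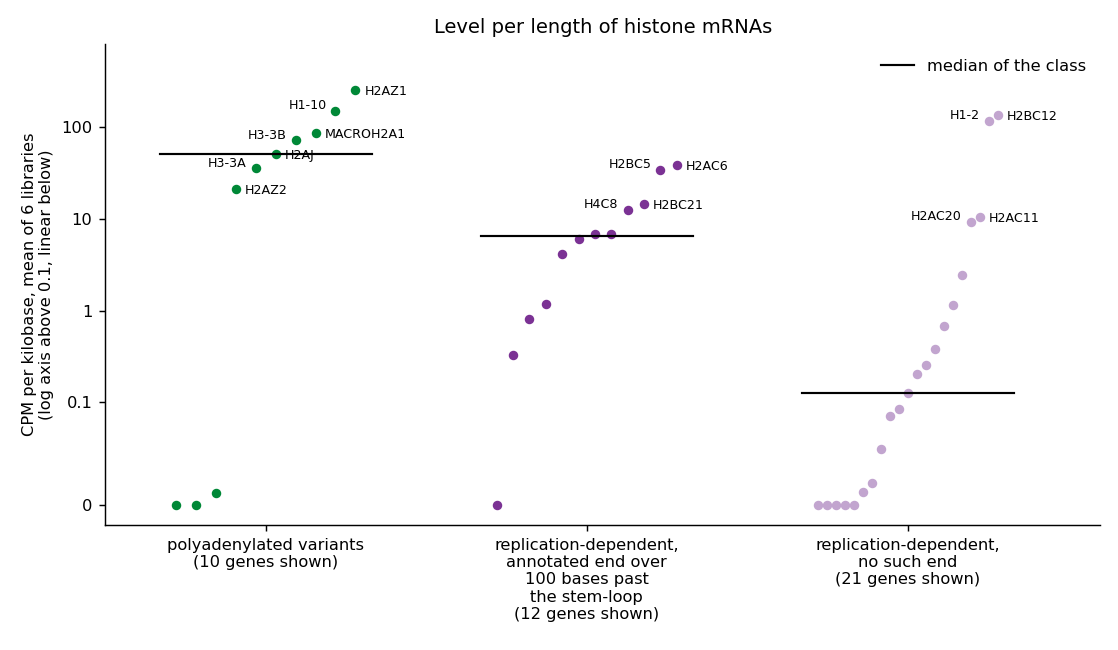
CPM per kilobase of the canonical transcript (mean of 6 libraries, logarithmic above 0.1 and linear below) for 10 of the 11 polyadenylated variants, 12 replication-dependent genes with an annotated end more than 100 bases past the stem-loop and 21 without one. Each point is 1 gene, those with 100 or more normalized counts on average are named, and the bars mark the medians of 51.1 (over all 11), 6.43 and 0.125.

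Histone genes also occur as divergent pairs that start close to each other on opposite strands, and 6 such pairs had a row for both genes. Levels within a pair differed. H2AC6 had 38.7 CPM per kilobase and H2BC4, whose start is 219 bases away, had 6.91. For H2AC25 and H2BC26, 230 bases apart, the values were 6.89 and 0.331, and for H2BC13 and H2AC13, 244 bases apart, 0.205 and 1.16. The gap was smaller for H2BC21 and H2AC20, at 14.5 and 9.28, and for H2BC11 and H2AC11, at 5.98 and 10.5. H2AC1 and H2BC1 were both at 0. In the first of these pairs H2AC6 has an annotated end 14432 bases past its stem-loop and H2BC4 one 37155 bases past, and H2BC4 shares exons with a gene on the opposite strand. The strand setting of the counting is not given in the sources used here, so reads of genes on opposite strands may not have been separated.

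The polyadenylated variants were led by H2AZ1. H2AZ1 and H2AZ2 encode the closely related proteins of H2A.Z, a variant found next to the starts of active genes. H2AZ1 had 254 CPM per kilobase, the highest value of any histone gene, and H2AZ2 had 21.1, the lowest of the 8 variants that passed the filter. In normalized counts H2AZ1 had 4535, 4473 and 4337 in the controls and 5663, 5147 and 5119 after IRE1, with no overlap. H2AZ2 had 1392, 1320 and 1372 in the controls and 1549, 1481 and 1411 after IRE1, also with no overlap. H2AJ, another H2A variant, had 623, 620 and 618 in the controls and 864, 770 and 732 after IRE1. The controls of H2AJ lay closer together than those of any other histone gene with 100 or more normalized counts, relative to their mean, and all treated samples lay above them.

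H3-3A and H3-3B encode the same protein, H3.3, which is put into chromatin outside replication. H3-3B had 4076, 4191 and 4155 normalized counts in the controls and 4231, 4452 and 4638 after IRE1, with no overlap. H3-3A had 787, 859 and 752 in the controls and 850, 954 and 835 after IRE1, and the groups overlapped. Per kilobase H3-3B had 71.4 CPM and H3-3A 35.3 CPM. Repeated words make up 20.6% of H3-3A and 2.24% of H3-3B. The processed pseudogene H3P6, named after its values were seen, had 444 to 681 raw counts per library, so that the counts of the H3.3 genes are uncertain to that extent.

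The linker histone H1-10 is a polyadenylated variant with a high count. It had 5057, 4760 and 5286 normalized counts in the controls and 4787, 5610 and 4865 after IRE1, and the groups overlapped. MACROH2A1, an H2A variant with a large additional domain, had 3568, 3794 and 3554 in the controls and 3920, 3648 and 3722 after IRE1, with overlap. H2AZ1, H1-10, H3-3A, H3-3B and MACROH2A1 share exons with a gene on the opposite strand, and H2AJ and H2AZ2 do not. The last 3 variants were not detectable at this depth or nearly so. H1-7 and H1-8, known from germ cells, had no count, and MACROH2A2 had 3 counts in 1 control and none elsewhere.

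H2AX, the H2A variant that is phosphorylated at DNA breaks, carries the stem-loop shown above and an annotated end 1024 bases past it. Its level was that of the variants, not of the replication-dependent genes. It had 5715, 5458 and 5844 normalized counts in the controls and 5612, 6512 and 5762 after IRE1, and 164 CPM per kilobase, the second highest level after H2AZ1. The groups overlapped, with IRE1 replicate 2 above and the other treated samples within the range of the controls.

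After IRE1, H1-2, H2AZ1 and H2AJ rose and no tested histone gene was called lower. The RNA was treated outside the cell, where none is made. Here and below, rose and higher thus mean a larger share of the counts after scaling, and fell and lower a smaller one. The test covered 25 of the 46 genes, 16 replication-dependent, 8 variants and H2AX, and 21 did not pass the filter on low counts. Of the 25, 3 were higher (background: 10.3% of all 14398 genes tested were higher) and 0 were lower (background: 12.4%), by edgeR's quasi-likelihood test with an adjusted p under 0.05. At an unadjusted p under 0.05, 6 of the 25 were higher and 0 were lower by edgeR, 3 and 0 by DESeq2, and 6 and 0 of 22 by limma. No share over all genes is given at this unadjusted limit, so these counts are not read as a result. With an adjusted p under 0.05, DESeq2 also gave 3 higher and 0 lower of 25, and limma on the authors' CPM gave 3 and 0 of 22. The share of higher genes among the 25 is near the background of all genes, but this background does not allow for transcript length. Among other tested protein-coding genes with a longest transcript of up to 600 bases, 40.5% were higher and 0% lower. From 600 to 1000 bases 52.3% were higher and 0% lower, and above 10000 bases 1.82% and 44.8%. The 25 were not compared with genes of their own lengths, so these counts are not a result about histone genes as a set. H2BC18 and H1-3 among the 25 reached the filter's level in all 3 IRE1-treated samples but in only 1 control, and a higher value in the treated samples helped them to be tested. Without them, 3 of 23 were higher.

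H1-2 rose by a log2 fold change of 0.30 ± 0.05 (SE), with an adjusted p of 0.00147 (edgeR, n = 3 per group). For H2AZ1 the change was 0.25 ± 0.05 with an adjusted p of 0.00247, and for H2AJ it was 0.34 ± 0.07 with an adjusted p of 0.00301. These are the changes of 1 replication-dependent gene and 2 variants, and the difference between the classes was not tested. Each of the 3 remained higher in all 6 fits that left out 1 library, and none passed the test with the trend on the length and GC content of the canonical transcript removed, as given further on. H3-3B passed the threshold only without IRE1 replicate 1 (adjusted p = 0.0179) and H2AZ2 only without IRE1 replicate 3 (adjusted p = 0.0416).

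Every treated sample lay above every control for 7 of the 25, namely H1-2, H1-3, H4C8, H2AZ1, H2AJ, H2AZ2 and H3-3B (background: 19.1% of all genes tested), and below every control for 0 of the 25 (background: 20.0%). The log2 fold change was above 0 for 22 of the 25, from 0.02 for H1-10 to 0.63 for H2BC18, with library size only as the scale for 14 of the 25, and with the trend on length and GC content of the longest transcript removed for 15. No share of all genes above 0 is given. Among other tested protein-coding genes the lower quartile was above 0 in every length class up to 2000 bases (0.11, 0.15 and 0.09). The counts above 0 are thus not a result about histone genes. H1-3 and H2BC18, which their treated samples helped past the filter, are in these counts, and without them 6 of 23 had no overlap and 20 of 23 were above 0. The 3 values under 0 were -0.17 for H2BC4, -0.24 for H2AC13 and -0.09 for H2AC11, and none passed the test. The largest values belonged to genes with few counts. H2BC18 had 0.63 ± 0.39 (adjusted p = 0.261), H1-3 had 0.51 ± 0.34 (adjusted p = 0.319) and H3C4 had 0.42 ± 0.29 (adjusted p = 0.326), all by edgeR with n = 3 per group.

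**Figure D3:**
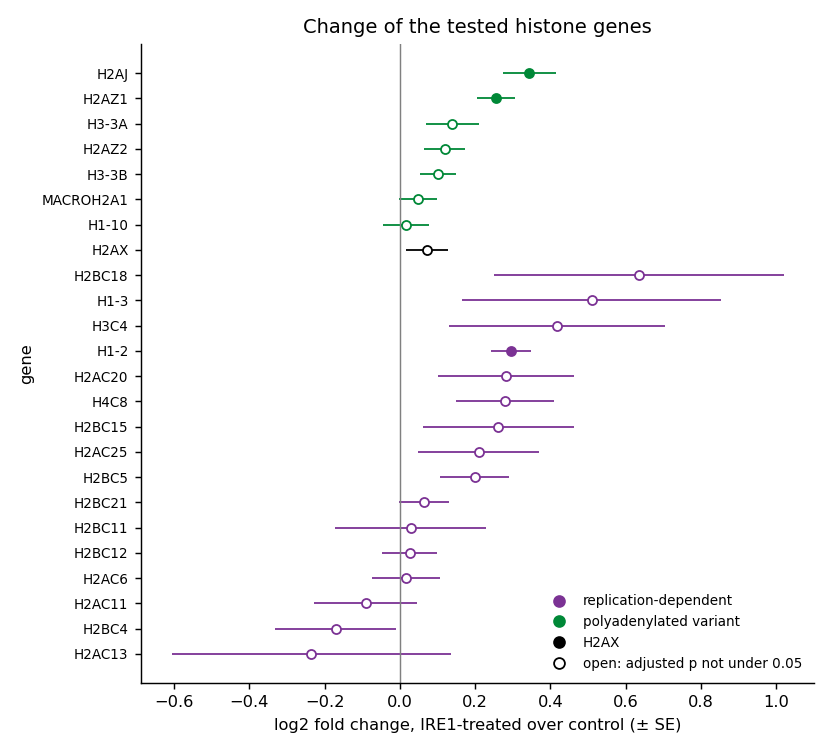
Log2 fold change of IRE1-treated over control samples (± SE) for 24 of the 25 tested histone genes, with 7 polyadenylated variants in green, H2AX in black and 16 replication-dependent genes in purple. Filled points (H2AJ, H2AZ1 and H1-2) passed an adjusted p of 0.05, and open points did not. Over all 25 tested genes 22 values are above 0 with this scaling, and 14 with library size only, and no share over all genes is given for these counts.

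Among the abundant genes that did not pass the test, some had values near 0 and others had larger ones. H2BC12 had a log2 fold change of 0.03 ± 0.07, H2AC6 of 0.02 ± 0.09 and H2BC21 of 0.06 ± 0.07. Each of these 3 turned below 0 with library size only and with the length and GC trend removed. H1-10 had 0.02 ± 0.06, and H2AX had 0.07 ± 0.06. Larger values belonged to H3-3B (0.10 ± 0.05), H2AZ2 (0.12 ± 0.05), H3-3A (0.14 ± 0.07) and H2BC5 (0.20 ± 0.09). At lower counts H4C8 had 0.28 ± 0.13 and H2AC20 had 0.28 ± 0.18. A p that misses the threshold does not show that these levels were equal. The median over the 16 replication-dependent genes tested was 0.20, or 0.13 over the 14 without H1-3 and H2BC18, and over the 8 variants it was 0.11, beside 0.004 over all genes tested.

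The summed replication-dependent level was 240 ± 2.70 CPM in the controls and 265 ± 5.801 CPM after IRE1 (SD, n = 3 each), without overlap, a log2 ratio of 0.14. Without H1-2 it was 163 ± 4.64 and 171 ± 10.6 CPM, and the groups overlapped. Without H1-2 and H2BC12 it was 96.5 ± 2.35 and 103 ± 4.08 CPM, again without overlap. With library size only in place of TMM the class sums overlapped, at 246 ± 3.48 and 258 ± 12.05 CPM, and so did those without H1-2 and H2BC12, at 99.01 ± 2.70 and 100.4 ± 6.16 CPM. The sum of the variants was 1065 ± 3.70 CPM in the controls and 1151 ± 27.4 CPM after IRE1, a log2 ratio of 0.11, and 1092 ± 5.28 and 1119 ± 7.15 CPM with library size only, without overlap in either case. TMM gave factors of 0.947, 0.980 and 0.996 for the treated samples and of 1.02 to 1.03 for the controls.

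Transcript length moved with the change in all genes, and many histone mRNAs are short. The lengths in these classes are those of the longest annotated transcript, whereas the levels per kilobase above use the canonical one. Over the other tested protein-coding genes the median log2 fold change was 0.23 in 37 genes with a longest transcript of up to 600 bases and 0.25 in 285 genes of 600 to 1000 bases. It was 0.17 from 1000 to 2000 bases, 0.08 from 2000 to 3000, -0.02 from 3000 to 5000, -0.16 from 5000 to 10000 and -0.25 above 10000. H1-2, with 731 bases, had 0.30, within the middle 50% of its length class (0.15 to 0.34). H2AZ1, with 1880 bases, had 0.25, just inside that of its class (0.09 to 0.26). H2AJ, with 3107 bases, had 0.34, above that of its class (-0.13 to 0.09), and MACROH2A1, with 10982 bases, had 0.05, above that of its class (-0.42 to -0.10). H2BC12 and H2AC11, with 495 and 493 bases, had 0.03 and -0.09, below the middle 50% of theirs (0.11 to 0.35).

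The place of a gene depends on the length that is used. The canonical transcript of H2AJ has 620 bases, that of H2AZ1 866 and that of MACROH2A1 1917. In classes of canonical length, chosen after the values were seen, H1-2 and H2AZ1 were inside the middle 50% of their class (0.15 to 0.31), H2AJ was just above that range, and MACROH2A1 was below that of its own (0.07 to 0.23). For MACROH2A1 the place thus turned from above to below. H2BC12 and H2AC11 were below theirs (0.20 to 0.37) by either length.

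When the trend of each library on length and GC content of the longest transcript was removed, H1-2 had 0.11 with an adjusted p of 0.0996 and no longer passed the test. H2AZ1 had 0.14 with an adjusted p of 0.0355. H2AJ had 0.34 with an adjusted p of 0.00480. MACROH2A1 then had 0.33 with an adjusted p of 0.00182, all by edgeR with n = 3 per group. With this trend removed 3 histone genes were thus higher, and 2 of them were also higher without this step. With the trend on the canonical transcript removed instead, an alternative chosen after the values were seen, 0 of the 25 were higher by edgeR. Over all 14398 genes 1009 were higher in this setting. At an unadjusted p under 0.05, 5 of the 25 were higher by edgeR, again without a share over all genes. H1-2 then had 0.13 (adjusted p = 0.0565), H2AJ 0.18 (adjusted p = 0.0538), H2AZ1 0.0996 (adjusted p = 0.131) and MACROH2A1 -0.0398 (adjusted p = 0.635), all with n = 3 per group. The calls of H2AZ1, H2AJ and MACROH2A1 thus depended on the length used. Over all genes, 45.5% of the calls were higher genes, 63.5% with either trend removed and 20.8% with library size only. The part of RNA length or GC content in these changes was not tested further.

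**Figure D4:**
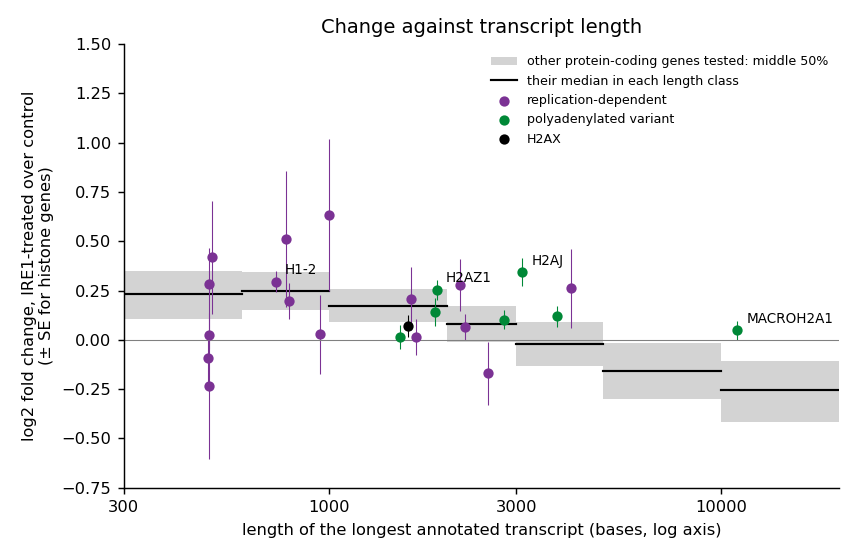
Log2 fold change of IRE1-treated over control samples against the length of the longest annotated transcript (log axis). Points with SE bars are 24 of the 25 tested histone genes, and for the other tested protein-coding genes in each length class the black lines give the median and the grey bands the middle 50%. The median runs from 0.23 at up to 600 bases to -0.25 above 10000, with H1-2 and H2AZ1 inside the band of their class and H2AJ and MACROH2A1 above it. By canonical length, which is not drawn, MACROH2A1 (1917 bases) is below its band and H2AJ (620 bases) just above.

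The letters CTGCAG, searched in the longest annotated transcript of each gene, occurred in 11 of the 25 tested histone genes (44%). They occurred in 3 of the 16 replication-dependent genes and in 7 of the 8 variants. Among all 12225 protein-coding genes tested the share was 88.0%, and among the 332 of up to 1000 bases it was 47.9%. H1-2 and H2AZ1 held no CTGCAG, and H2AJ held 3. These letters read the same on both strands, and the search did not ask for a hairpin. None of these 11 genes was called lower, and neither was any tested histone gene without these letters, so the calls say nothing about the site.

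Of the genes for histone mRNA 3′ ends and decay, all 25 passed the filter, 6 were higher (background: 10.3%), 5 were lower (background: 12.4%) and 14 did not pass the test. The median was 0.04. For SLBP, which binds the stem-loop, the log2 fold change was -0.06 ± 0.06 with an adjusted p of 0.497 (edgeR, n = 3 per group). With the trend of the longest transcript removed SLBP was called lower by edgeR, at -0.17 with an adjusted p of 0.0494. It was not called with the replicate block as well (adjusted p = 0.0830), nor with the trend of the canonical transcript removed (-0.15, adjusted p = 0.0752). NPAT, which drives transcription of the replication-dependent genes, fell from 615, 634 and 586 normalized counts in the controls to 357, 441 and 440 after IRE1, with a log2 fold change of -0.56 ± 0.08 and an adjusted p of 0.000383. The Sm protein genes SNRPD3, SNRPE, SNRPF and SNRPG rose, SNRPD3 by 0.30, SNRPE by 0.28, SNRPF by 0.49 and SNRPG by 0.33, and their proteins are parts of the splicing snRNPs and also of U7 snRNP. MIF4GD, a partner of SLBP in translation, rose by 0.29, and LSM1, of the decapping complex, by 0.25. TUT4 and TUT7, which add uridines to RNA ends, fell by 0.35 and 0.22 on the log2 scale, CDC73 fell by 0.22 and CPSF2, a subunit of the cleavage factor, fell by 0.21. With library size only the list had 3 higher and 6 lower, with the trend of the longest transcript removed 5 and 3, and with that of the canonical one 2 and 2. Without control replicate 1 the list had 3 higher and 2 lower, without control replicate 2 it had 5 and 2, without control replicate 3 it had 4 and 4, and without IRE1 replicate 2 it had 4 and 2. Over all genes tested these fits gave, in the same order, 709 higher and 972 lower of 14542, 638 and 992 of 14554, 947 and 1360 of 14649, and 893 and 1089 of 14668. NPAT, TUT4, SNRPD3, SNRPF and SNRPG kept their call whichever library was left out. With either trend removed NPAT, TUT4, SNRPD3 and SNRPF also kept it. SNRPG lost it, at 0.18 with the longest transcript (adjusted p = 0.0950) and 0.15 with the canonical one (adjusted p = 0.134), both by edgeR.

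Of the histone chaperones and assembly factors, all 31 passed the filter, 9 were higher (background: 10.3%), 5 were lower (background: 12.4%) and 17 did not pass the test, with a median of -0.002. NASP, a chaperone of H3 and H4, rose by 0.31, NPM1 by 0.23, NAP1L1, a chaperone of H2A and H2B, by 0.21, DNAJC9 by 0.25 and VPS72, which binds H2A.Z, by 0.23. CHAF1B, a subunit of the factor that loads H3 and H4 at the fork, rose by 0.20, as did NAP1L4 by 0.16, SSRP1 by 0.15 and RBBP7 by 0.15. In the 6 fits that left out 1 library, SSRP1 lost its call in 5, CHAF1B, NAP1L4 and RBBP7 in 4, DNAJC9 in 3 and NAP1L1 in 2. NASP, NPM1 and VPS72 lost it in none. With either trend removed NAP1L4 and VPS72 lost their calls, and NASP, NAP1L1 and CHAF1B kept theirs. DNAJC9 lost it with the trend of the longest transcript removed, and SSRP1, RBBP7 and NPM1 with that of the canonical one. Those that fell were ATRX (-0.61), UBN2 (-0.40), EP400 (-0.36), SRCAP (-0.32) and TSPYL1 (-0.17), and ASF1B had 0.09 ± 0.05 (adjusted p = 0.243, edgeR, n = 3 per group). SRCAP and EP400, which put H2A.Z into chromatin, have transcripts of 11905 and 12289 bases, ATRX 11165 and UBN2 14692, in the length class whose median was -0.25. With the trend of the longest transcript removed SRCAP had -0.051, EP400 -0.091, UBN2 -0.072 and TSPYL1 -0.021, and none of these 4 kept its call. UBN2 and TSPYL1 also lost it in 4 and 5 of the 6 fits that left out 1 library. ATRX kept its call with either trend removed and whichever library was left out. With library size only the list had 2 higher and 9 lower, with the trend of the longest transcript removed 7 and 2, and with that of the canonical one 5 and 1. It had 4 and 3 without control replicate 1, 3 and 3 without control replicate 2, 4 and 5 without control replicate 3, and 5 and 4 without IRE1 replicate 2. The counts over all genes in these settings are those given with the list of histone mRNA 3′ ends and decay.

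RNAs listed as lacking a poly(A) tail were also looked at, since they meet the same beads as the stem-loop mRNAs. The list is not strict, as NEAT1 also has a short form with a tail. Of 22 listed, 14 had a row under a unique symbol, 4 of those were at 0 in all libraries and 4 passed the filter. RN7SK, the RNA of the 7SK particle, rose from 76.0, 74.1 and 81.2 normalized counts in the controls to 219, 115 and 143 after IRE1, a log2 fold change of 1.03 ± 0.19 with an adjusted p of 0.00179 (edgeR, n = 3 per group). IRE1 replicate 1 was the highest. RN7SL2, of the signal recognition particle, had 46 to 299 raw counts per library, with 1.09 ± 0.44 on the log2 scale and an adjusted p of 0.0844, so it was not called. The nuclear RNA MALAT1, whose end is folded instead of tailed, fell by 0.24 on the log2 scale, but had 0.03 with the length and GC trend removed and an adjusted p of 0.0610 without control replicate 1. NEAT1 had -0.09 ± 0.05 and was not called.

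The genes of DNA replication, active in the same phase of the cell cycle as the stem-loop mRNAs, gave 6 higher (background: 10.3%) and 2 lower (background: 12.4%) of 20, with a median of 0.04. RFC4 (0.43), GINS2 (0.23), CDC45 (0.21), FEN1 (0.19), PCNA (0.18) and TYMS (0.14) rose, and RFC1 (-0.22) and MCM4 (-0.16) fell. With library size only 1 was higher and 3 were lower, with the trend of the longest transcript removed it was 3 and 1, with the replicate block as well 1 and 0, with the trend of the canonical transcript removed 2 and 0, and without control replicate 2 it was 1 and 1. The counts were 3 and 0 without control replicate 1, 2 and 1 without control replicate 3, and 2 and 1 without IRE1 replicate 2. Among the plasma cell genes TNFRSF17 rose by 0.25 and PRDM1 fell by 0.25, and XBP1 had -0.09 ± 0.04 (adjusted p = 0.143, edgeR, n = 3 per group). TNFRSF17 lost its call with either trend removed (0.085 and 0.10), and XBP1 passed the test with library size only (-0.17, adjusted p = 0.0037), with either trend removed (-0.16 and -0.19) and without IRE1 replicate 1 (-0.11). XBP1 is the best known IRE1 target, but reads from either side of its cuts enter the same gene count.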

How the data were processed

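Libraries of NCI-H929 RNA (3 control, 3 IRE1) were made by the authors with a stranded poly(A) kit, trimmed with cutadapt 1.12, aligned to GRCh37 (hg19) with STAR 2.5.3a and counted per Ensembl gene with HTSeq 0.6.1p1, per the labels; strand and overlap settings are not given in the sources used here. The deposited raw counts were used. The authors also deposited a CPM table, made with edgeR 3.24.3, which served in 1 alternative. Lines that name no gene (21.4% to 23.2% of counts) were left out. The depth on genes was 19615715 to 25678499 counts per library.

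Counts were tested with edgeR 4.0.16 (filter on low counts, TMM, quasi-likelihood test, Benjamini-Hochberg over 14398 genes, threshold 0.05, R 4.3.3), with DESeq2 1.42.0 and limma 3.58.1 (log2 of CPM + 1) as alternatives. Further alternatives were scaling by upper quartile or by library size only, other filters (none, or at least 10 counts in every library), a block for the replicate number, the removal of a loess trend on length and GC of the longest transcript (span 0.5) or, added after the values were seen, of the canonical transcript, and fits without each library in turn. Lowest chi-square per gene between libraries of a group was 2.21, so none was a copy.

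Names, positions and lengths came from GENCODE release 44 on GRCh37, which named 55538 of 57905 identifiers. Repeated words are 75-base stretches that occur more than once in the genome. Named genes are called members, members with 100 or more normalized counts on average, H2AX and variants with a mean of at least 10, called genes of the lists, and fixed checks. A member and a marker that fall under these rules are not reported here. The members and lists were chosen with earlier results of these data known.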

Additional observations from a re-analysis of the deposited data

Results flagged for a closer look

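Of 3 shares from the summary lines of the files, which no comparison above uses, 2 were higher in the IRE1-treated samples and 1 was lower. Pairs without a unique alignment made up a mean of 11.8% of all counts after IRE1 (11.4% to 12.6%) and 11.1% in the controls (10.7% to 11.4%). Pairs on more than 1 gene made up a mean of 4.19% after IRE1 (4.11% to 4.24%) and 3.97% in the controls (3.93% to 4.03%). Pairs on no gene made up a mean of 6.37% after IRE1 (6.25% to 6.46%) and 6.68% in the controls (6.62% to 6.80%). Each treated sample lay above each control in the first of these measures and in the second, and below each control in the third, each with an exact permutation p of 0.1 (two-sided, n = 3 per group), the smallest that 3 against 3 allows. The share of these pairs that came from histone genes was not tested.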

How the results depend on the processing

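The 3 calls of H1-2, H2AZ1 and H2AJ and the absence of lower members held with DESeq2, upper quartile scaling, library size only, both other filters, limma and the replicate block, and with each library left out. With the length and GC trend removed 3 members were higher, and 2 with the replicate block as well, where H2AZ1 had 0.14 (adjusted p = 0.0619) and H1-2 had 0.11 (adjusted p = 0.179). These trends were on the longest transcript, and with that on the canonical transcript removed, chosen after seeing the data, 0 members were higher. The replicate numbers did not pair the samples (same-number correlations of -0.036, -0.005 and -0.112), and the block gave 1117 higher and 1496 lower genes over all genes. The main counts, 1489 higher and 1781 lower, became 683 higher with library size only, 733 lower with the trend removed, 611 lower with trend and block and 581 lower with the canonical trend removed, and 638 to 2091 higher and 972 to 2221 lower with 1 library left out.

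The median of the replication-dependent genes, 0.20, was 0.13 with library size only, 0.11 with no filter (28 genes), 0.053 with the trend removed, 0.049 with trend and block, 0.043 with the canonical trend removed, and 0.12 to 0.23 with 1 library left out. The median of the variants, 0.11, was 0.051 with the canonical trend removed and 0.035 with library size only. The log2 ratio of the summed levels was, with library size only, 0.069 for replication-dependent genes and 0.035 for variants.

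Values that changed sign, none of them called after the change, were as follows. With library size only H2AX had -0.0030, H1-10 -0.060, MACROH2A1 -0.028, H2BC12 -0.048, H2BC21 -0.010 and H2AC6 -0.058. With the trend removed H2AX had -0.023, H1-10 -0.076, H2BC12 -0.15, H2BC21 -0.019, H2AC6 -0.086, CPSF2 0.10, ASF1B -0.032 and MALAT1 0.029. With trend and block they had, in the same order, -0.025, -0.078, -0.17, -0.022, -0.095, 0.10, -0.035 and 0.032. With the canonical trend removed H2AX had -0.016, H1-10 -0.069, MACROH2A1 -0.040, H2BC12 -0.14, H2AC6 -0.15, CPSF2 0.13, ASF1B -0.015 and MALAT1 0.057. With 1 library left out H1-10 ran from -0.061 to 0.059, H2BC12 from -0.035 to 0.12 and H2AC6 from -0.084 to 0.090. Of 928 values of 58 named genes under the alternatives, 703 kept direction and side of the threshold, 184 lost their call (6 of them with a change of direction) and 11 gained one. The causes were not tested. Depth limits the 21 members that were not tested.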
